A study of Mus musculus with 2 samples.

Results

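The 10 genes described here are listed together as epithelial antimicrobial defence genes, and they were chosen by name: Lcn2, Ltf, S100a8, S100a9, Slpi, Pigr, Lpo, Ngp, Camp and Lyz1. They stood on 14 of the 56597 probes left once outlier spots were removed. They made up 10 of the 37007 gene names of all non-control spots, outlier spots included. RNA was measured on 2 one-colour Agilent mouse arrays of 1 slide, 1 for young female C57BL/6 mice of 9 weeks and 1 for aged female C57BL/6 mice of 24 months. The labels do not say how many mice gave RNA to each array. Both arrays held RNA of submandibular gland cells that magnetic beads against EpCAM, a surface protein of epithelial cells, had pulled out of a digested gland. No treatment, transgene or mutant allele was given for either group. The methods state that the young mice came from a commercial breeder and the aged mice from the facility of the institute, so the source of the mice and their age cannot be told apart, and bead selection leaves some cells of other types. With 1 array per age there was no replicate, no difference could be tested, and the errors printed below come from the scanner software's error model for each spot, which leaves out the spread between mice.

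Saliva carries a set of proteins that slow bacteria in different ways. Lcn2 binds the siderophores with which bacteria collect iron, and Ltf, lactoferrin, binds iron itself. S100a8 and S100a9 form calprotectin, which withholds zinc and manganese. Lpo, lactoperoxidase, turns thiocyanate into an oxidant with hydrogen peroxide, Lyz1 is a lysozyme that cuts the bacterial cell wall, and Pigr is the receptor that carries polymeric IgA through the epithelial cell into saliva. Slpi is a protease inhibitor with antibacterial activity, Camp is the cathelicidin precursor, and Ngp is a granule protein of neutrophils related to cathelicidins and cystatins. Several of the 10, among them Ltf, Lcn2, S100a8, S100a9, Ngp and Camp, are also abundant products of neutrophils and their precursors in the bone marrow, so the gene names alone do not say which cell made the RNA.

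The probes that carried the results were 60 bases long. Not all are printed, and those of S100a9 and Lyz1, for example, are left out. Those printed for 5 genes are each the only probe of the gene or a second, dimmer probe. Their sequences were picked by judgement to avoid untranslated ends, which could not be checked in the sources used. They are written in lower case, 5′ to 3′, and the coordinates are those of mouse build mm9. The Ltf probe lay at chr9:110942873-110942932, the S100a8 probe at chr3:90473778-90473837, the Ngp probe within chr9:110324266-110324814, the second Lcn2 probe within chr2:32241037-32241281, and the Lyz2 probe, shown for comparison with Lyz1, at chr10:116719175-116719234. The Ngp and Lcn2 targets spanned 549 and 245 bases of the genome, more than the length of the probe.
Ltf: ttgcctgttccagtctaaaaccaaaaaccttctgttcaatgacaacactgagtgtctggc
S100a8: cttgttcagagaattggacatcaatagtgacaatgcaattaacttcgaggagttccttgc
Ngp: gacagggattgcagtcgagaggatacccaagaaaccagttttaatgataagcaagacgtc
Lcn2: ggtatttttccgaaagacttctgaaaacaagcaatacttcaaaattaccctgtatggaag
Lyz2: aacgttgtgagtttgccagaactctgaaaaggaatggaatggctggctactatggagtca

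Pigr had a pair of probes, and they are not alike. The brighter of them consisted of A and G only and held a run of 11 AAG repeats, shown in capitals. The array annotation placed this probe on the reverse strand at chr4:151670425-151670484 and listed transcripts of 3 genes for it, Pigr, Rhox8 and Zfp811. The other probe lay on the forward strand at chr1:132741106-132741165 and held no such repeat.
Pigr repeat probe: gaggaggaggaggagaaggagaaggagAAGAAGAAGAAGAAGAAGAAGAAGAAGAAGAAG
Pigr second probe: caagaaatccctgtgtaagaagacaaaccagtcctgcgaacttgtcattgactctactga
Of the 56605 probes of the array, outlier spots included, 15 consisted of A and G only, and the other 14 had a median signal of 9474 in young and 9178 in aged cells, far above the 75th percentile of all spots. The repeat probe stood for Pigr in the counts below, being the brighter one, and the values of the second probe are given beside it.

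Lcn2, Ltf, S100a8, S100a9 and Ngp, 5 of the 10 genes, were higher by 2-fold or more in the aged cells, Lyz1 alone was lower by as much, and the 4 others, Slpi, Pigr, Lpo and Camp, passed 2-fold in neither direction. Of the 21346 genes that rose well above background in the young or the aged cells, 2.53% were 2-fold or more higher and 5.14% were 2-fold or more lower. All 10 genes passed that filter, with 13 of their 14 probes, but not in the same way. Lcn2, Ltf, Slpi, Pigr, Lpo and Lyz1 were measured at both ages, 2 of them (Lcn2 and Ltf) higher and 1 (Lyz1) lower by 2-fold, beside 1.52% and 3.05% of all genes measured at both ages. S100a8, S100a9 and Ngp cleared the background in aged cells alone and Camp in young cells alone. These 4 had no measured fold but a lower limit, in which the dim side was set to the array's faintest detected signal or, where larger, to what the probe itself gave. A gene that entered through 1 array was bound to differ: of the 485 genes seen on the aged array only, 52.6% had a limit of at least 2-fold, and of the 2116 seen on the young array only, 24.9% had one. The median difference over the 6 genes measured on both arrays was 0.74 on the log2 scale, beside 0.094 over all 18745 genes measured on both. In bulk RNA, fewer cells of a type and less RNA per cell cannot be told apart.

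**Figure D1:**
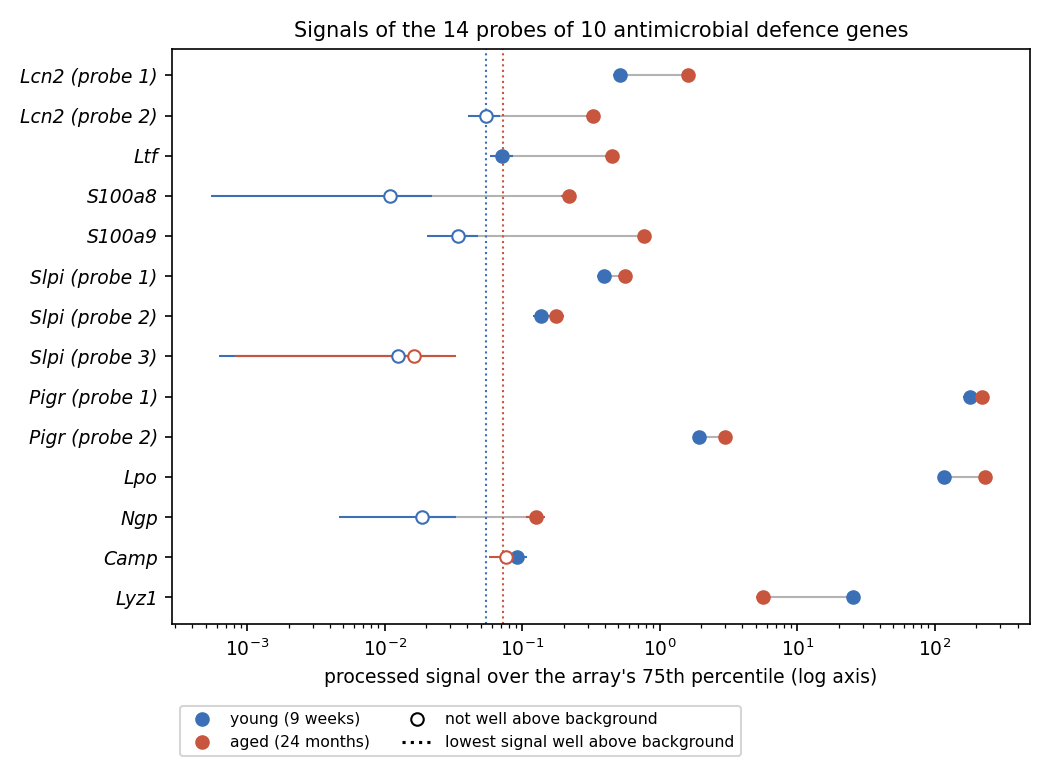
Processed signal of each of the 14 probes divided by the 75th percentile of its array, on a log axis, for the young (blue) and aged (red) array. Bars are the error of the scanner software, with the lower arm shortened where the error reached the signal, and open circles mark signals not well above background. S100a8, S100a9 and Ngp lay left of the dotted lines, the lowest signals well above background, on the young array alone, and Lyz1 was the gene whose young signal lay far to the right of the aged one.

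Lcn2 and Ltf were both higher on the aged array. The brightest Lcn2 probe, at chr2:32240199-32240258, went from a processed signal of 131 ± 13.4 in young cells to 319 ± 32.0 in aged cells. The 75th percentile of all spots was 256 for young and 198 for aged cells, so that equal signals stand for a higher relative level in aged cells. Relative to that percentile Lcn2 had a log2 difference of 1.65 ± 0.21, or 3.15-fold. The second Lcn2 probe went from 14.03 ± 3.71, not well above background, to 64.7 ± 7.35, which set a limit of at least 5.96-fold. Both Lcn2 probes thus stood higher on the aged array.

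Ltf went from 18.4 ± 3.51 in young cells to 88.8 ± 9.38 in aged cells. The log2 difference was 2.64 ± 0.31, or 6.25-fold. The young signal was only a little over the lowest signal that counted as well above background there, 14.1. When the background was modelled by the normexp method in place of the software's own correction, the Ltf difference was 1.27, still above 2-fold but far smaller. That setting also added an offset of 50 to every signal, which by itself shrinks the differences of dim signals. The same holds for every value given under normexp below, so a smaller value there does not show an effect of the background alone.

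The calprotectin genes were seen on the aged array alone. S100a9, at chr3:90496573-90496632, went from 8.72 ± 3.51, not well above background, to 153 ± 15.7, a limit of at least 14.04-fold. S100a8 gave a raw signal of 37.8 over a local background of 47 on the young array, so that the software put a small positive value in its place, and a processed signal of 43.2 ± 5.17 on the aged array. The limit for S100a8 was at least 3.98-fold. Both chains of the heterodimer therefore went from below detection on the young array to a measured signal on the aged array, although under normexp the S100a9 limit was 3.48-fold and the S100a8 limit 1.84-fold.

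Ngp, also seen on the aged array only, went from 4.79 ± 3.604 to 24.97 ± 4.002. Its limit was at least 2.30-fold, and this was under 2-fold with the spike-in controls or normexp as the reference, the lowest being 1.45-fold. Camp, which lies with Ngp among the cathelicidin-related granule genes, went the other way. Its probe, at chr9:109749911-109749970, went from 23.6 ± 4.05 to 15.1 ± 3.64, the latter not well above background. The limit was at least 1.21-fold lower, and the difference of -0.28 ± 0.43 was smaller than its own error and turned to 0.09 under normexp. Both genes lay close to the detection limit at their brighter age.

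Lpo was bright on both arrays. Its probe, at chr11:87620077-87620136, went from 30162 ± 3016 in young cells to 45988 ± 4599 in aged cells. The log2 difference was 0.98 ± 0.20, or 1.97-fold, just inside the 2-fold mark, which it passed only when the arrays were centred on their medians. With a loess curve of the difference on the signal it was 0.37, so the size of the Lpo difference depended on how bright probes were set level.

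Slpi and Pigr differed less. The brightest Slpi probe, at chr2:164179849-164179908, went from 101 ± 10.7 to 110 ± 11.6, a log2 difference of 0.50 ± 0.22, or 1.41-fold. A second Slpi probe gave 35.4 and 35.02, or 0.36 ± 0.28, and the remaining one was above background on neither array. The Pigr probe on chromosome 1 gave 493 ± 49.4 and 590 ± 59.1, a log2 difference of 0.63 ± 0.20, or 1.55-fold. The repeat probe gave 45982 ± 4598 and 43959 ± 4396, or 0.31 ± 0.20, and its sign turned under quantile normalization and under loess, where the difference was -0.24 and -0.33.

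Lyz1 was the gene of the 10 that was clearly lower. Its probe, at chr10:116724862-116724921, went from 6529 ± 653 in young cells to 1110 ± 111 in aged cells. The log2 difference was -2.18 ± 0.20, so the aged signal was 4.54-fold lower. Under the 7 scalings of the arrays it lay between -2.49 and -2.01.

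**Figure D2:**
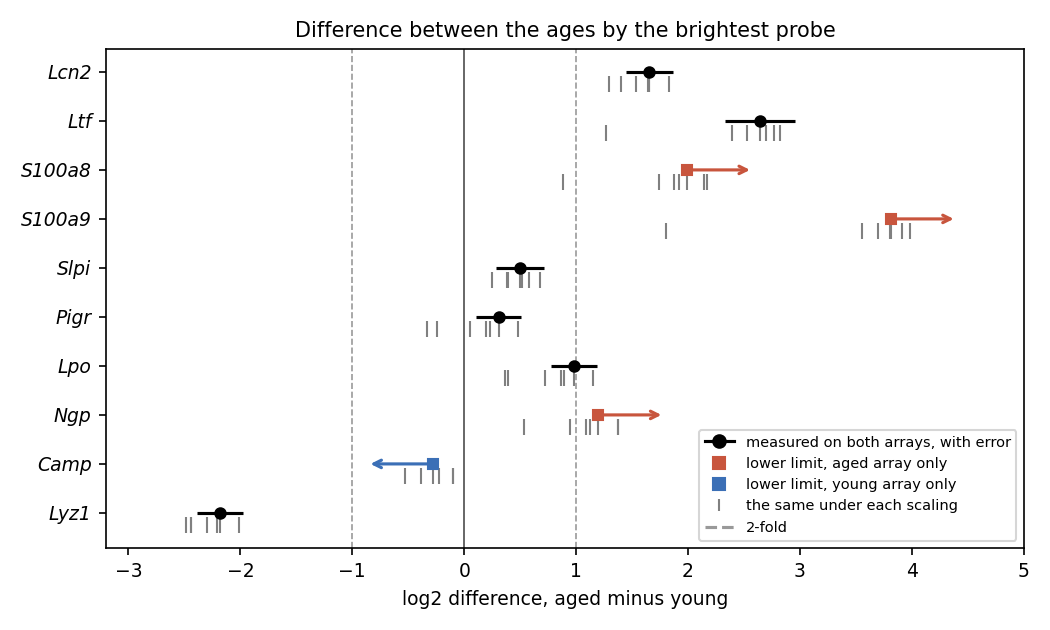
Log2 difference of the aged minus the young array for the brightest probe of each gene. Black points with error bars are genes measured on both arrays, squares with arrows are limits for genes seen on 1 array, grey ticks give the same value under each of 7 scalings, and dashed lines mark 2-fold. Lcn2, Ltf and S100a9 stayed right of 2-fold and Lyz1 left of it under every scaling drawn, while the ticks of Pigr lay on both sides of 0.

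Among the 18745 genes measured on both arrays, ranked from the highest difference down, Ltf was at place 30, Lcn2 at 91, Lpo at 301, Slpi at 2593, Pigr by its repeat probe at 5255 and Lyz1 at 18680. Ltf and Lcn2 thus stood near the upper end, Lyz1 near the lower end, and Slpi and the repeat probe of Pigr within the bulk. The chromosome 1 probe of Pigr, with a difference of 0.63 beside 0.50 for Slpi, was not ranked. Among the limits of the 485 genes seen on the aged array only, S100a9 was at place 16, S100a8 at 106 and Ngp at 214.

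**Figure D3:**
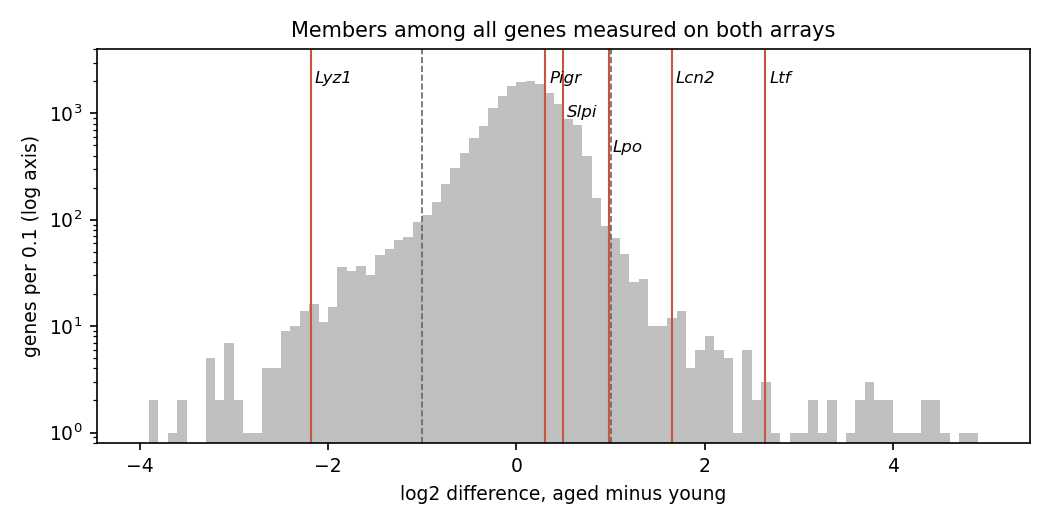
Number of genes in steps of 0.1 of the log2 difference, aged minus young, for the 18745 genes measured on both arrays, with the count on a log axis. Red lines mark the 6 genes of the set that were measured on both arrays and dashed lines mark 2-fold. Ltf and Lcn2 lay in the thin right tail, Lyz1 in the left tail and Slpi and Pigr, drawn by its repeat probe, close to the middle.

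Lyz1 has a close neighbour on chromosome 10, Lyz2, which encodes the lysozyme of macrophages and other myeloid cells. The array annotation listed Lyz1 alone for the Lyz1 probe. Lyz2 was lower on the aged array by both of its probes. Its brighter probe fell from 23810 ± 2381 to 4884 ± 488, a log2 difference of -1.91 ± 0.20, and the probe printed above fell from 793 ± 79.4 to 160 ± 16.4, or -1.94 ± 0.21. How much of the Lyz1 signal came from Lyz2 RNA was not tested.

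The promoters of the lysozyme pair are shown because both genes were lower together. In RefSeq's GRCm38.p6 sequence, the 150 bases before the start of Lyz1, chr10:117292869-117293018, and of Lyz2, chr10:117282273-117282422, both on the minus strand, were identical at 129 positions (86%). The sequences were compared position by position, with no gaps allowed. Capitals mark the bases that differ in that comparison, and the 50 bases nearest the start held none.
Lyz1: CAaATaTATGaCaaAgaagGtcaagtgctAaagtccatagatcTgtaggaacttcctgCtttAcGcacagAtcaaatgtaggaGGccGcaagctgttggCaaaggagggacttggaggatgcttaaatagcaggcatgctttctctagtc
Lyz2: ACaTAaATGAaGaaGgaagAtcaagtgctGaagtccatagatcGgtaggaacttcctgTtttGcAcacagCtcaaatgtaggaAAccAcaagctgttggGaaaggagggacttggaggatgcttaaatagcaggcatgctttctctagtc
Over the outermost stretch of the 250 bases compared, 23 of 100 bases were identical position by position. Without gaps, this count cannot tell unlike sequence from like sequence shifted by an inserted or missing base.

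Macrophage markers moved with the lysozymes. Of 12 marker genes of monocytes and macrophages, a list that holds Lyz2, all were measured at both ages, with a median difference of -1.17. In aged cells 9 were lower by 2-fold or more, beside 3.05% of all genes measured at both ages. With median centring or normexp 6 of the 12 were lower by as much. Mrc1, the mannose receptor, was 3.69-fold lower and C1qc, a chain of complement C1q, 2.67-fold lower. The summed level of the list, in units of each array's 75th percentile, went from 164 to 68.4, of which Lyz2 made up 92.9 and 24.7. Without Lyz2 the sum went from 71.3 to 43.7. The part of these cells in the Lyz1 difference was not tested.

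Neutrophil markers outside the set were mixed. Of 18 of them, 10 were detected at either age. Stfa3 was 2-fold or more higher, with a limit of at least 3.24-fold, and Stfa2 was lower, by 2.67-fold. These were 1 gene in each direction, beside 2.53% and 5.14% of all genes kept. Mmp9 was within 2-fold by the probe that stood for it, with signals of 17.1 and 18.6. Its other probe went from 48.2 to a signal not well above background, a limit of at least 2.61-fold lower. The median difference of the 7 measured on both arrays was -0.18, and the summed level went from 135 to 123. The bright probes of Csf3r and Itgam made up 131 and 119 of these sums, and the rest of the list went from 4.09 to 4.34. The bright Itgam probe gave signals of 13247 and 9870, while another Itgam probe gave 19.1 and 11.6, the latter not well above background. The precursor enzymes Mpo and Prtn3, the chemokine receptor Cxcr2, and Retnlg, Mmp8, Stfa1, Fpr1 and Ms4a3 were above background on neither array. Ly6g, the usual surface marker of mouse neutrophils, went from 68.7 to 46.7, a difference of -0.18 ± 0.24. Elane, the neutrophil elastase, gave 0.24 ± 0.20 and Csf3r, the receptor for G-CSF, -0.21 ± 0.20. Under normexp Stfa2 was 1.51-fold lower and the limit of Stfa3 was 1.64-fold. The part of neutrophil RNA in the higher signals of Lcn2, Ltf, S100a8, S100a9 and Ngp was not tested.

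The cells on both arrays carried epithelial RNA. All 8 epithelial markers were detected, the 7 measured at both ages were less than 2-fold apart, and Krt19, detected in young cells only, had a limit of at least 1.85-fold lower, which passed 2-fold on the spike-in controls and with the percentile over probes measured on both arrays. The summed level of the list was 517 in young and 574 in aged cells. Krt18, a keratin of simple epithelia, gave 0.22 ± 0.20 and Epcam 0.20 ± 0.20. The leukocyte gene Ptprc was also measured, but its probes disagreed. Its brightest probe went from 1468 to 979, a difference of -0.21 ± 0.20. Another went from 112 to 81.0, or -0.09 ± 0.22, while a probe of its RefSeq transcript went from 368 to 98.7, or -1.53 ± 0.21, a second of that transcript had a limit of at least 2.23-fold lower, and the last one had a limit of at least 1.27-fold lower. The marker lists of acinar cells, granular ducts and intercalated and striated ducts had medians of 0.38, -0.23 and 0.36, and that of basal and myoepithelial cells -0.02. Single markers passed 2-fold. Of 10 acinar genes, Bpifa2 was 2.87-fold higher and Smgc 3.45-fold lower. Of 6 basal and myoepithelial genes, Cnn1 was 4.39-fold and Myh11 3.55-fold lower, the latter within 2-fold under normexp. The probes of Acta2, in the same list, disagreed. Its brightest probe, which stood for it in the median, gave -0.08 ± 0.20. Another went from 1895 to 375, or -1.96 ± 0.20, and the dimmest had a limit of at least 4.31-fold lower. The label of the 10 genes as epithelial could not be checked gene by gene in RNA of a mixed preparation.

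Other secreted antimicrobial proteins changed in both directions. Of 33 such genes, 19 were detected at either age, and the median of the 16 measured on both was 0.28. In aged cells 4 were 2-fold or more higher and 3 were 2-fold or more lower, beside 2.53% and 5.14% of all genes kept. Dmbt1, a salivary scavenger protein that clumps bacteria, went from 27.6 to 282, a difference of 3.73 ± 0.27. Sftpd, surfactant protein D, a collectin that binds bacterial sugars, went from 59.1 to 207, a difference of 2.18 ± 0.22. Both stayed above 2-fold under the 7 scalings, with 4.72-fold for Dmbt1 and 2.82-fold for Sftpd as the lowest values.

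Bpifa2, the parotid secretory protein of mouse saliva, was 2.87-fold higher, with 0.74 as its difference under loess. The pair of C-type lectins Reg3g and Reg3b went opposite ways: Reg3g had a limit of at least 8.44-fold higher and Reg3b of at least 4.71-fold lower. Chit1, a chitinase of macrophages, had a limit of at least 2.46-fold lower. Under normexp the limit of Reg3g was 2.40-fold, and those of Reg3b and Chit1 were below 2-fold. The beta-defensins Defb1, Defb2, Defb3, Defb4 and Defb14 were above background on neither array.

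The partners of Lpo and of the iron-binding proteins were mixed. Their counts stand beside 2.53% of all genes kept that were 2-fold or more higher and 5.14% that were 2-fold or more lower. Of 14 genes for oxidases and anion transport, 9 were detected and 2 were higher, both of the dual oxidase that makes hydrogen peroxide at the epithelial surface: Duoxa2, its maturation factor, went from 16.3 to 44.6, a difference of 1.82 ± 0.36, and Duox2 had a limit of at least 2.20-fold. Both lay near background, normexp took the Duoxa2 difference and the Duox2 limit below 2-fold, and the spike-in controls did so for Duox2. Cybb, the phagocyte oxidase subunit, was 2.59-fold lower. Of 12 genes of iron and siderophore handling, 11 were measured on both arrays, none was 2-fold higher and 2 were lower, Trf, transferrin, by 3.33-fold and Slc11a1, an iron and manganese transporter of phagocytes, by 2.58-fold. Slc22a17, described as a receptor for Lcn2, gave 0.24 ± 0.06. Its probe had 10 spots on each array, taken as independent, so this error is smaller than that of a probe with 1 spot and says nothing more about mice. Another Slc22a17 probe, with 1 spot, gave 0.39 ± 0.21. With normexp Cybb and Slc11a1 fell within 2-fold.

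The genes around Pigr and IgA were likewise not of 1 direction. Of 10 genes listed, 8 were found on the array by name and 7 were above background. In aged cells 1 was 2-fold or more higher and 2 were lower by as much, beside 2.53% and 5.14% of all genes kept. Ccl28, the chemokine that draws IgA plasma cells to glands, was 2.02-fold higher and stayed at 2-fold under 2 of 7 scalings. Jchain, the chain that joins IgA dimers, was 3.44-fold lower, and Fcgrt, the neonatal Fc receptor, 2.16-fold lower, though within 2-fold with normexp or median centring.

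Of 29 cytokines, receptors and factors that induce such genes in epithelia, 24 were detected. Of these 0 passed 2-fold higher, beside 2.53% of all genes kept, and 2 were lower, beside 5.14%. The lower ones were Il1b, by 2.20-fold, and Tnf, by 2.68-fold, while a second Tnf probe gave -0.42. With median centring Il1b was within 2-fold, and the list had 1 gene higher and 1 lower by 2-fold. Il17a, Il17c, Il17f, Il36a and Il36g were above background on neither array. The C/EBP factors Cebpb and Cebpd gave 0.67 ± 0.20 and 0.88 ± 0.20. Of 7 receptors for the secreted proteins or of related cytokines, Il1rl2, the IL-36 receptor, had a limit of at least 2.62-fold lower and the others were within 2-fold. Under normexp that limit was below 2-fold.

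**Figure D4:**
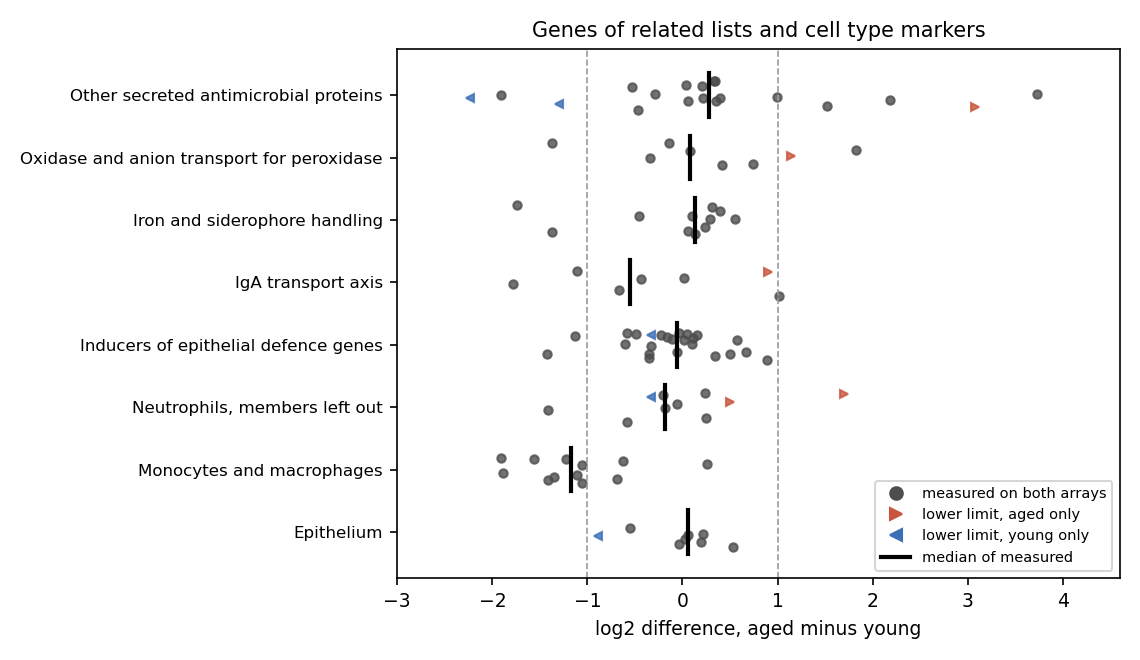
Log2 difference, aged minus young, of the genes of 5 related lists and 3 cell type marker lists. Grey points are genes measured on both arrays, triangles are limits for genes seen on 1 array, black bars are medians of the measured genes and dashed lines mark 2-fold. Monocyte and macrophage markers lay mostly left of 2-fold, neutrophil markers around 0, and Dmbt1 was the point farthest to the right.

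The 250 bases before the start of each of the 10 genes were searched on both strands for 7 motifs, picked with the differences already known. TTNNGNAA, a loose form of the site bound by C/EBP factors, occurred before 8 of the 10 genes, all but Pigr and Camp, and in 36.8% of 32851 mouse promoters of the same length. The genes with it included Lyz1, which was lower, and Slpi, which was within 2-fold. GAGGAA, an ETS core, occurred before Lcn2, Ltf and S100a8 and in 23.3% of all promoters. TATAAA occurred before S100a8 only, at 30 bases before the start, and in 12.4% of all promoters. TGTGGT, a RUNX core, occurred before S100a9 and in 14% of all promoters. The kappaB consensus, TTCNNNGAA and TGANTCA occurred before none of the 10 and in 7.25%, 7.02% and 6.75% of all promoters. These are matches of letters in this window, and no measurement here shows whether a factor was bound.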

How the data were processed

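The authors extracted total RNA, labelled it with Cy3 and hybridised it to Agilent mouse 8 x 60K arrays, 1 for each age. Agilent Feature Extraction 12.0.3.1, per the submitters' processing notes, gave the deposited intensity of each spot, already corrected for background. The deposited table of processed intensity values held the same signals divided by 1 constant per array (within 1% for 100% of spots), after a normalization to the 75th percentile that the methods state.

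From the scanner intensity, log2 of the processed signal was taken relative to the 75th percentile over 59305 non-control spots (256 young, 198 aged). Spots marked as outliers (90 young, 93 aged) were left out on both arrays, and spots of 1 probe were averaged. A probe was kept where either array called it well above background (55.4% of spots young, 50.8% aged, none saturated), and the brightest kept probe stood for its gene, a rule that named the repeat probe of Pigr. Lowest signals well above background were 14.1 and 14.3. Negative control spots not marked as outliers, 295 young and 289 aged, reached 4.63 and 3.77. The number of arrays limits the precision: member probes had 1 spot each, while 293 probes with 10 spots each had a median SD of the log2 difference of 0.033 over spots.

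No test was made. A gene counted as higher or lower from 2-fold on. The genes and lists were chosen with earlier results of these data known. Genes named from the lists were those past 2-fold, at most 8 for each list, or those needed to state that a gene was near or below background. Sequences came from the array annotation and from RefSeq tables (GRCm38.p6), and exon or UTR status of the probes was not given in the sources used here. Scripts were tested on simulated data in which only bright genes were made to differ, so the lower limits of dim genes were not tested. R 4.3.3 with limma 3.58.1 and Python 3.11.15 were used.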

Additional observations from a re-analysis of the deposited data

How the results depend on the processing

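Over the alternatives run, the 10 genes were counted again with other scalings, background corrections, filters, probe rules and thresholds. Lyz1 was the 1 lower gene in every one, and Lcn2 and Ltf were higher in every one. With normexp, where the offset of 50 shrinks the differences of dim signals, the number of higher genes was 3, namely Lcn2, Ltf and S100a9. It was 2 when only probes above background on both arrays counted, since the limits of S100a8, S100a9 and Ngp then fell away. It was 4 with the arrays set level on the spike-in controls, without Ngp, and 6 with the arrays centred on their medians or at 1.5-fold, with Lpo added. The median of the 6 measured genes was 0.48 under quantile normalization, 0.44 under loess and 0.49 on the spike-in controls, and 0.81 with Pigr read from its chromosome 1 probe, an alternative chosen after seeing the data. Spike-in scaling moved all differences by -0.25 and median centring by 0.17. No difference of a called gene changed sign.

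Over all genes, the counts higher and lower were 182 and 297 with normexp, 350 and 1612 on the spike-in controls, 802 and 867 with median centring, 442 and 1279 with the percentile over probes measured on both arrays, 1685 and 2416 with no filter, 650 and 1691 with dim values as they stood, 285 and 571 when only probes measured on both arrays counted, and 2287 and 2205 at 1.5-fold, beside 539 and 1098. No paired analysis was possible because each age had 1 array. The cause of these shifts was not tested beyond what each alternative changes. Signals near background limit S100a8, S100a9, Ngp, Camp and Ltf.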
